A study of Mus musculus with 16 samples.

Results

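The immunity-related GTPases Iigp1, Irgm1, Irgm2, Igtp, Ifi47, Tgtp1 and Tgtp2 were followed through the nuclei of the mouse hippocampus after DMXAA, an agonist of mouse STING. They were taken by symbol and made up 7 of the 32285 genes counted. Single-nucleus RNA was sequenced from frozen hippocampus of 16 male mice, with 1 mouse per library and 4 libraries per group. WT mice (C57BL/6, age 2 months and 23 days in the labels) and Ifnar1-/- mice (3 months and 3 days), which lack a chain of the type I interferon receptor, received vehicle or repeated intraperitoneal injections of DMXAA. Both genotypes were compared within themselves, to ask which of the responses to DMXAA were seen without that receptor. The Ifnar1 deletion was present in every cell of the mouse, and genotype cannot be told apart from age or cohort. Nuclei hold unspliced and newly made RNA, so cytoplasmic transcripts and proteins were not measured.

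Immunity-related GTPases (IRGs) are among the most strongly interferon-induced proteins of mice. The effector members, Iigp1 (Irga6), Ifi47 (Irgd), Tgtp1 and Tgtp2 (both Irgb6), load onto the vacuoles that surround intracellular parasites such as Toxoplasma and help to break them open. The regulatory members, Irgm1, Irgm2 and Igtp (Irgm3), sit on the cell's own membranes and hold the effectors inactive there. Their genes are switched on by type I and type II interferons and are best known from macrophages.

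Apart from Iigp1, the genes lie on chromosome 11 (GRCm38, the build of the files, with GENCODE M21 gene models). Irgm1 (ENSMUSG00000046879) spans 48861968 to 48871683 on the minus strand. Tgtp1 (ENSMUSG00000078922, 48985327 to 48994172, minus), Tgtp2 (ENSMUSG00000078921, 49057194 to 49064206, minus) and Ifi47 (ENSMUSG00000078920, 49076587 to 49096974, plus) follow it. Igtp (ENSMUSG00000078853, 58199556 to 58207591, plus) and Irgm2 (ENSMUSG00000069874, 58199618 to 58222782, plus) share 7974 bases on the same strand, so reads inside that stretch cannot be placed in one of them without the exons. Tgtp1 and Tgtp2 are near-identical copies. Of their 60-base words, 79.6% and 84.4% recurred elsewhere in the annotated transcripts, against 0.642% for Iigp1, 0.138% for Irgm1, 6.47% for Irgm2 and 10% for Igtp. Tgtp1 also shares 6900 bases with Gm12185, and Ifi47 lies inside Olfr56 on the same strand, so values of Tgtp1, Tgtp2 and Ifi47 are uncertain.

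Promoters of 5 of these genes carry the letters that interferon-activated factors are known to bind, and they are shown because they hold such a match close to the start. RefSeq promoters (GRCm38.p6, 250 bases before to 50 after the start) were listed for 6 of the 7 genes, and Iigp1 was not among them. The core of the interferon-stimulated response element, which is a pair of GAAA set apart by any 2 bases, was searched on both strands. It was found in 5 of the 6, against 1131 of 32851 promoters in all (3.44%). Each line below gives 60 bases, 5′ to 3′ on the strand of the gene, with the match in capitals.
Irgm1 (chr11:48871416-48871475, minus): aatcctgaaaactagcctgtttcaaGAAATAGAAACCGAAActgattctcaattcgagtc
Irgm2 (chr11:58214888-58214947, plus): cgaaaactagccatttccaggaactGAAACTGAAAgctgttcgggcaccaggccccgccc
Igtp (chr11:58199497-58199556, plus): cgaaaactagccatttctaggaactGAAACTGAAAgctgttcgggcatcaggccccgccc
Tgtp1 (chr11:48992289-48992348, minus): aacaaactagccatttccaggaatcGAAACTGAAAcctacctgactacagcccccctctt
Tgtp2 (chr11:49064248-49064307, minus): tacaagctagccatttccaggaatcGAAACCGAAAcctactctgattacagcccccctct

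Distances are from the RefSeq starts, which for Irgm1, Irgm2 and Tgtp1 lie inside the GENCODE spans given above and not at their ends. The windows shown for these genes lie inside those spans as well. The match began 30 bases before the start in Irgm1, 34 in Igtp, 64 in Irgm2, 70 in Tgtp2 and 77 in Tgtp1. Irgm1 held 2 overlapping matches, the other beginning 24 bases before the start. TTCNNNGAA, the letters of a gamma-activated site (GAS), was found in 4 of the 6 promoters (Irgm2, Igtp, Tgtp1 and Tgtp2), against 8.3% of all promoters, and lay just upstream of the capitals without overlapping them. Both motifs together were found in 0.454% of all promoters. The windows were compared position by position without gaps, each placed by its first match. By that count those of Irgm2 and Igtp were the same at 58 of 60 bases and those of Tgtp1 and Tgtp2 at 44. That of Irgm1 matched the others at 17 to 22. Shifted stretches are missed, such as gaaaactagcc, which Irgm1 holds at another position than Irgm2 and Igtp. The bases after the match in Tgtp1 and Tgtp2 are also shifted. These counts are therefore no measure of how alike the promoters are. The 300 bases listed for Ifi47 held neither motif, which says only that these letters were not in that window.

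After filters on genes, mitochondrial reads and doublets, 111068 of 155084 barcodes were kept, with 5267 to 9417 nuclei and 33375608 to 52271972 UMIs (unique molecules) per library. In all, 1571 barcode sequences (1.43%) occurred in more than 1 library. Nuclei were clustered without the IRGs or other interferon genes and named from marker genes. 12780 nuclei stayed unnamed. Excitatory neurons (ENs) were divided by regional markers, and dentate granule neurons had 285 CPM (counts per 1e6 UMIs) of Prox1, their defining factor, against at most 2.92 in the other EN regions. Prox1 was also among the leading genes of the neuroblast cluster. Microglia had 1120 CPM of P2ry12, against at most 380 in another class. Ifnar1 was at 13.6 to 19.3 CPM in the WT libraries and at 10.8 to 12.6 in the Ifnar1-/- libraries, so its 3′ counts were lower without being lost. With library totals alone the median of all genes was also lower in Ifnar1-/- vehicle libraries, as given below. The library of WT DMXAA replicate 3 stood apart. Malat1 took 2.38% of its UMIs, against 5.35 to 9.16% in the other WT libraries and 1.27 to 2.79% in Ifnar1-/- libraries, and neutrophil genes were highest in it (307 of the 353 S100a8 UMIs of the WT DMXAA group). Dentate granule neurons, CA1 neurons and oligodendrocytes each came as a pair of clusters that divided the libraries. Of the dentate granule nuclei, 88.7 to 99.5% lay in the first cluster in 7 WT libraries, and 0 to 11.2% in the 8 Ifnar1-/- libraries. WT DMXAA replicate 3 had 0.196% there. Both clusters were summed in each class, and values without that library are given beside the changes it decided.

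Summed over all nuclei, 4 of the 7 genes had enough UMIs to be tested. Iigp1 had 1676 UMIs in the 16 libraries, Irgm1 1499, Irgm2 1475 and Igtp 331. Ifi47 had 41, Tgtp1 26 and Tgtp2 61. The 4 better-counted genes were spread over the nuclei in different shares, given here over the 4 groups together. Dentate granule neurons held 72.4% of the Iigp1 UMIs, 7.81% of those of Irgm1 and 1.69% of those of Irgm2. Microglia held 47.1% of the Irgm2 UMIs. Irgm1 was spread widely, with 393 UMIs in ENs, 352 in astrocytes and 322 in microglia, and Igtp had 88 in astrocytes and 80 in microglia. The shares differed between groups, and dentate granule neurons held 3.48% of the Irgm1 UMIs with WT vehicle and 10.9% with WT DMXAA. Sums over all nuclei mix the number of nuclei of a class with the RNA of each, which cannot be told apart there, so the values below are given by class.

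**Figure D1:**
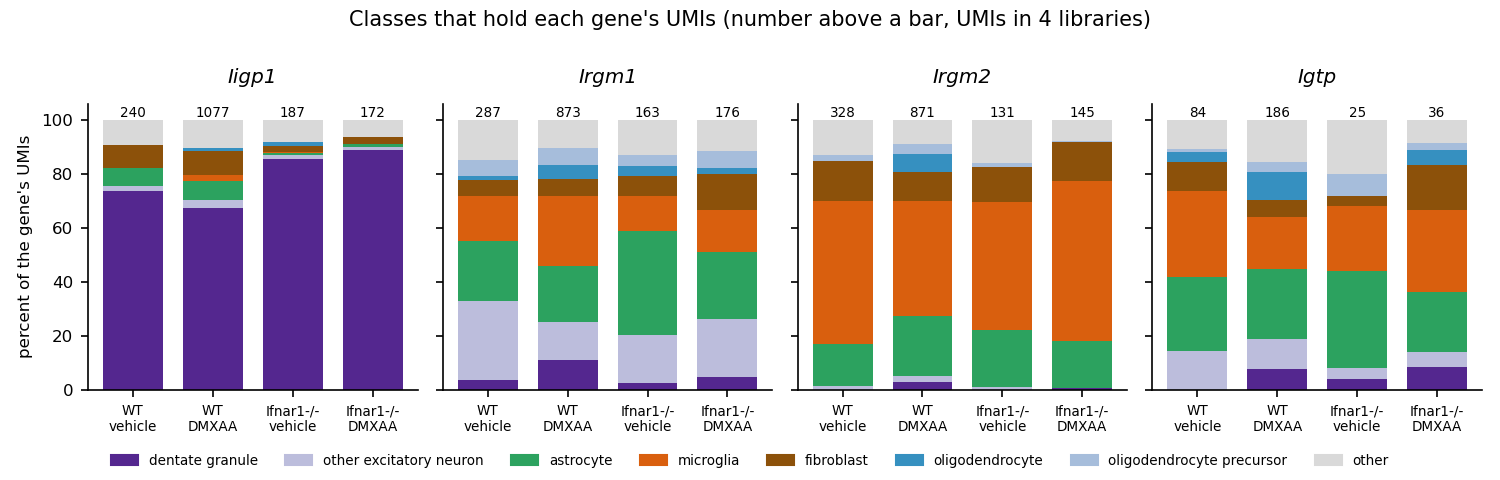
Percent of the UMIs of Iigp1, Irgm1, Irgm2 and Igtp that each class of nuclei held, by group, with the UMIs of the 4 libraries above each bar. Dentate granule neurons held 67.2 to 89% of the Iigp1 UMIs in every group, and microglia the largest share of Irgm2.

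Without DMXAA, Iigp1, an effector that attacks parasite vacuoles, was a gene of dentate granule neurons among the neurons. Its gene (ENSMUSG00000054072) lies on chromosome 18, from 60376027 to 60392634 on the plus strand. Its level there was 4.469, 5.529, 5.371 and 4.152 CPM in the 4 WT vehicle libraries (177 UMIs, 4.88 ± 0.674, SD). It was 0 in CA1 and at most 0.367 CPM on average in the other EN regions and the inhibitory neurons (INs). The highest of those libraries, at 1.47 CPM in CA3 from 1 UMI, lay below every dentate library. A UMI of Iigp1 was found in 150 of 4895 WT vehicle dentate granule nuclei (3.06%, Wilson 95% interval 2.62 to 3.59). A UMI was found in 0 of 1881 CA1 nuclei, which allows a share of up to 0.159%, in 0 of 4706 oligodendrocytes, which allows up to 0.0637%, and in 1 of 3678 nuclei of the upper cortical layers. It was found in 8 of 50 endothelial nuclei, which line the vessels (16%, Wilson 95% interval 8.34 to 28.5). Intervals and limits cover counting error only. Dentate granule nuclei were deep, with a median of 6955 UMIs, and the share was 0.306% after each nucleus was thinned to 500 UMIs.

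Outside neurons, the order of Iigp1 levels in WT vehicle mice was border macrophages (21.2 ± 20.7 CPM, only 6 UMIs), fibroblasts (10.4 ± 3.08), dentate granule neurons and astrocytes (1.7 ± 1.19), over the 15 classes with at least 20 nuclei in each WT vehicle library. Endothelial nuclei were not ranked, and their 2 libraries of that size had 56.73 and 91.7 CPM from 8 UMIs, above every border macrophage library. Mural and choroid plexus nuclei were not ranked either. Border macrophages and fibroblasts overlapped, fibroblasts (6.93 to 13.83 CPM) lay above dentate granule neurons without overlap, and astrocytes (0.2947 to 2.875 CPM) lay below them. In microglia, the brain's macrophages, Iigp1 was not detected in 1330 WT vehicle nuclei, which allows a share of up to 0.226% with a UMI. These nuclei were shallow, with a median of 1855.5 UMIs, so this limit is not one on nuclei that express the gene.

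The 3 regulatory genes had another order. Irgm1, which protects the cell's own membranes, was highest of the ranked classes in WT vehicle mice in border macrophages (61 ± 65.8 CPM) and microglia (18.5 ± 3.53), then in fibroblasts (8.59 ± 7.75), astrocytes (6.47 ± 2.42) and oligodendrocyte precursors (4.96 ± 1.85). Microglia lay above astrocytes without overlap, whereas astrocytes and precursors overlapped. Oligodendrocytes (0.373 CPM) and dentate granule neurons (0.268 CPM) were lowest of those given. Irgm2 was at 80.3 ± 44.8 CPM in border macrophages, 67.9 ± 17.2 in microglia, 24.4 ± 3.46 in fibroblasts and 5.27 ± 3.88 in astrocytes, and was not detected in INs, oligodendrocytes or 4895 dentate granule nuclei, which allows a share of up to 0.0613% in the last. Igtp was at 10.6 ± 3.07 CPM in microglia, 4.47 in fibroblasts and 2.24 ± 0.663 in astrocytes. In the 2 unranked endothelial libraries, Irgm1 was at 28.36 and 22.93 CPM, Irgm2 at 42.54 and 114.6 and Igtp at 14.18 and 22.93, and Igtp came to 13.7 ± 12.6 CPM from 2 UMIs in 3 mural libraries. Levels are compared here between classes for 1 gene and not between genes, since 3′ counts were not scaled to length.

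**Figure D2:**
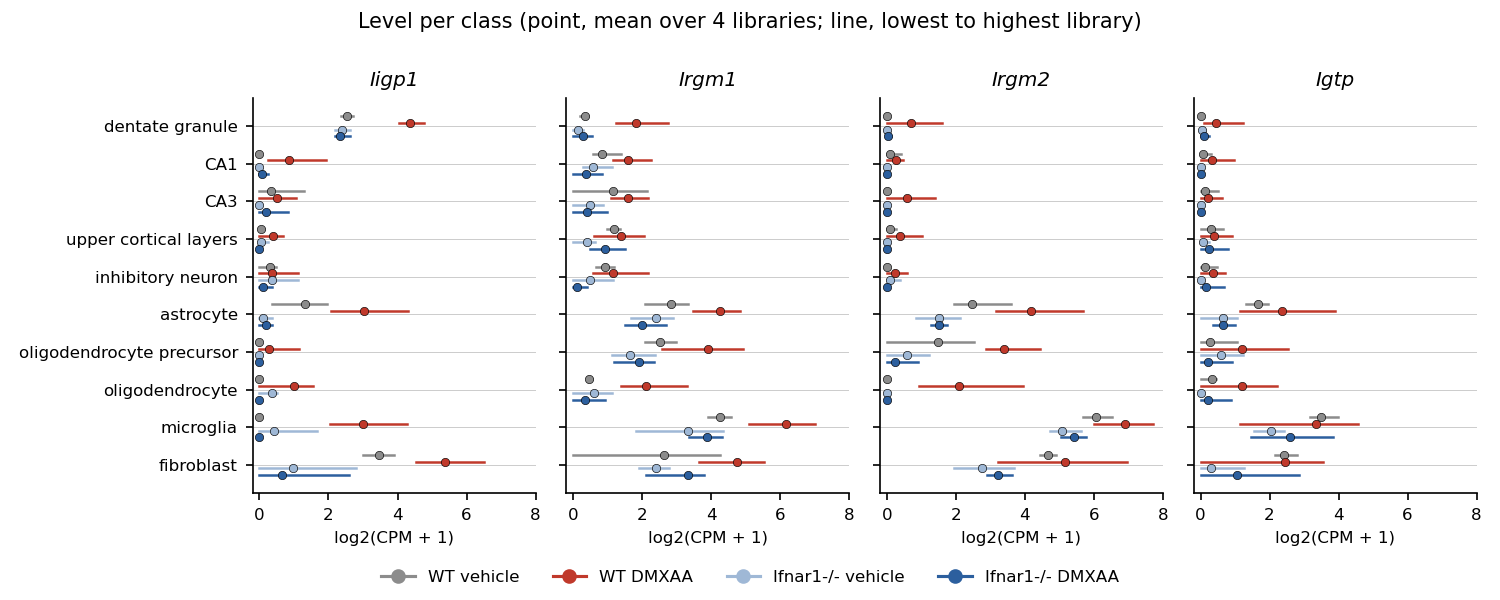
Levels of Iigp1, Irgm1, Irgm2 and Igtp on a log2(CPM + 1) scale by class and group, with a point at the mean and a line from the lowest to the highest library. Dentate granule neurons stand above the other neurons for Iigp1, and microglia and fibroblasts are high for Irgm2.

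Iigp1 rose with DMXAA in the dentate granule neurons of WT mice and Irgm1 in their microglia. Counts were summed per library and class and tested with edgeR's quasi-likelihood test, with Benjamini-Hochberg adjustment over all genes of the class. Genes with an adjusted p under 0.05 whose log2 fold change exceeded 0.1 in size are termed called. The filter on low counts left 14 gene and class pairs of 4 of the 7 genes, and 6 of them were called, each higher with DMXAA. In all nuclei 2 of 4 tested were called (Iigp1 and Irgm1), where 0.421% of genes were called in either direction. In microglia 1 of 2 was called (Irgm1), against 1.82% of genes. In dentate granule neurons 2 of 2 were called (Iigp1 and Irgm1), against 0.137% of genes, and in ENs as a whole 1 of 2 (Iigp1, whose UMIs there are mostly those of dentate granule neurons), against 0.125%. In astrocytes 0 of 2 were called, against 0.225%, and in fibroblasts 0 of 2, against 0% of genes. At an unadjusted p under 0.05 all 14 pairs passed, and DESeq2 called 10. Of all genes, 1023 of 20167 in all nuclei, 883 of 8955 in microglia and 650 of 14620 in dentate granule neurons had such a p. In astrocytes these were 833 of 13338, in ENs 788 of 17634 and in fibroblasts 541 of 8915. In the same order, DESeq2 called 149, 189, 32, 63, 44 and 1 genes. The pairs are not separate results, since dentate granule neurons are part of ENs and every class is part of all nuclei. Irgm1 in dentate granule neurons, Iigp1 in fibroblasts and Irgm2 in astrocytes passed the filter only through the WT DMXAA libraries. Such a pair had to be higher there, so its values are a description, and these counts say nothing of the genes left out.

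The rise of Iigp1 in dentate granule neurons was seen in every treated WT library. Against the 4.152 to 5.529 CPM with vehicle, DMXAA libraries had 25.99, 20.51, 15.45 and 17.86 CPM (724 UMIs, 20 ± 4.53). Every treated library lay above every vehicle library, including replicate 3, at 15.45, which held for 0.68% of genes in that class. The log2 fold change was 2.10 ± 0.161 (SE; edgeR adjusted p = 5.95e-06) and stayed between 1.99 and 2.18 with any 1 library left out. Nuclei with a UMI went from 3.06% to 535 of 5008 (10.7%, Wilson 95% interval 9.86 to 11.6), and from 0.306% to 0.919% after thinning. Of these 535 nuclei, 401 had 1 UMI, 99 had 2 and 35 had 3 or more, with 6 at most. In dentate granule sums, microglia markers came to 80.2 to 105 CPM with vehicle and 30.2 to 135 with DMXAA. Monocyte and neutrophil markers came to 0 to 0.231 and 0.267 to 2.51 CPM, and 2 of those 5 genes were higher without overlap. With DMXAA the mean of Iigp1 was 8.53 ± 6.78 CPM in microglia, below that in dentate granule neurons. It was 47.8 ± 32.3 CPM in fibroblasts and 188 ± 295 CPM in border macrophages, above it. The part of RNA from these classes, monocytes or neutrophils in the rise was not tested. F830016B08Rik and Gm4841, IRG relatives beside Iigp1, had 0 UMIs in WT dentate granule neurons.

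**Figure D3:**
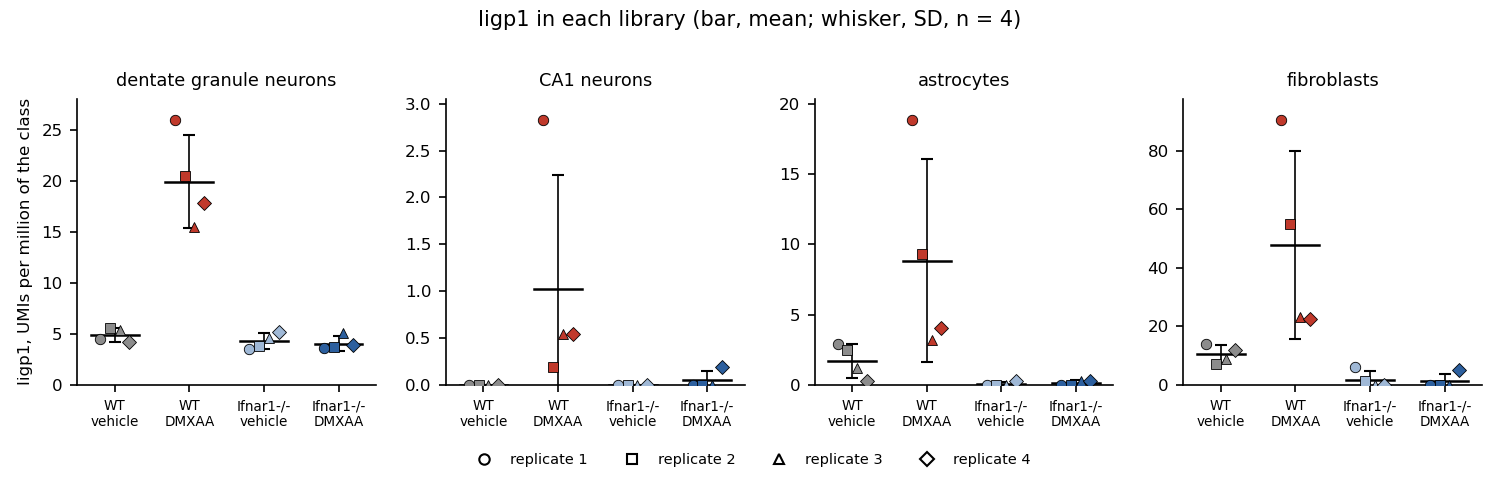
Iigp1 level (CPM) in each library in dentate granule neurons, CA1 neurons, astrocytes and fibroblasts, with a bar at the mean of 4 libraries and whiskers of 1 SD. In dentate granule neurons the 4 WT DMXAA libraries sit between 15.45 and 25.99 CPM, and the other 12 libraries between 3.527 and 5.529.

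Iigp1 in the other classes was counted thinly. Fibroblasts had 13.83, 6.93, 8.955 and 11.98 CPM with vehicle and 90.59, 55.02, 23.3 and 22.4 CPM with DMXAA, a log2 fold change of 2.27 ± 0.556 that was not called (edgeR adjusted p = 0.36). The groups did not overlap, as for 0.676% of genes in that class. Without WT DMXAA replicate 3 the change was 2.53 and was called, and without replicate 1 it was 1.78 and was not. Iigp1 passed the filter in fibroblasts only through the treated libraries, so these values are a description. Astrocytes had 2.875, 2.472, 1.156 and 0.2947 CPM with vehicle and 18.85, 9.309, 3.198 and 4.02 with DMXAA (16 and 77 UMIs). Iigp1 was too low for the fit there, and a two-sided exact permutation test gave p = 0.0286, the smallest that 4 against 4 libraries allow. Without WT DMXAA replicate 3 it entered the fit, at a log2 fold change of 2.75, but only through the treated libraries, so that this value is a description. It was 1.86 without replicate 1. Microglia went from 0 UMIs in 1330 nuclei to 13, 2, 4 and 6 UMIs in the 4 DMXAA libraries, at least 7.3-fold higher if the vehicle group is set at a floor of 3 counts (exact permutation p = 0.0286), and at least 4.62-fold without replicate 1. In CA1 the 4 vehicle libraries were at 0 and the DMXAA libraries at 2.825, 0.1875, 0.5386 and 0.5409 CPM. Over 37 such tests of thinly counted values, none passed after adjustment, since the smallest adjusted p was 0.106. A test was run where the groups compared held over 20 UMIs together. Where the treated group alone brought a value past this, its p is a description. Of the p-values given for WT mice, this was so for Iigp1 in microglia, astrocytes, border macrophages and choroid plexus. It was also so for Irgm1 and Irgm2 in oligodendrocytes, Irgm1 in oligodendrocyte precursors and Tgtp2 over all nuclei.

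In border macrophages, the macrophages of the meninges and vessels, WT DMXAA replicate 1 alone had 34 of the 39 Iigp1 UMIs of the 3 treated libraries with at least 20 such nuclei (528.1 CPM). The other 2, at 14.47 and 20.59 CPM, lay inside the 0 to 49.59 CPM of the vehicle group (exact permutation p = 0.257). WT DMXAA replicate 3, at 14.47 CPM, held 139 border macrophage nuclei (1.476% of its nuclei). Replicates 1, 2 and 4 of that group held 25, 9 and 22. The make-up of this class in replicate 3 was not tested, which also limits the Irgm1 and Irgm2 values of border macrophages below. In the choroid plexus, which makes cerebrospinal fluid, Iigp1 went from 0 to 24 UMIs over 3 against 3 libraries, with an exact permutation p of 0.1, the smallest that number allows.

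Irgm1 was the IRG that edgeR called in WT microglia with all libraries. Its level was 14.09, 19.29, 18.01 and 22.62 CPM with vehicle (48 UMIs) and 127.7, 87.23, 33.32 and 68.1 CPM with DMXAA (226 UMIs). The groups did not overlap, as for 2.23% of genes in microglia, and replicate 3 was the lowest of the treated libraries. The log2 fold change was 2.08 ± 0.365 (edgeR adjusted p = 0.00387), and every library left out in turn kept the call, with values from 1.79 to 2.34. Nuclei with a UMI went from 44 of 1330 (3.31%, Wilson 95% interval 2.47 to 4.41) to 200 of 1464 (13.7%, 12 to 15.5). Microglia markers in these sums came to 6260 to 9440 CPM with DMXAA against 9540 to 10300 with vehicle, and monocyte or neutrophil markers to 10.9 to 30.9 against 4.91 to 12.9. Border macrophage markers came to 14 to 21 against 6.43 to 15.6. Of the 5 monocyte or neutrophil genes, 1 was higher without overlap with DMXAA. Pf4, Ly6c2, Cd3e, Cd3g, Cd8a and Nkg7 were at 0, and the part of these cells in the change was not tested.

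Irgm1 was also higher in treated dentate granule neurons, where it passed the filter only through the WT DMXAA libraries, so that its call is a description. The vehicle libraries held 10 UMIs (0.1396, 0.3301, 0.2558 and 0.346 CPM) and the DMXAA libraries 95 (5.686, 1.585, 1.375 and 2.665 CPM), against 0 to 4 UMIs in each Ifnar1-/- library. The log2 fold change was 3.30 ± 0.588 (edgeR adjusted p = 0.0305). The call was less stable than that of Iigp1, as it was lost in 8 of 16 fits that left out 1 library, namely each WT vehicle library, WT DMXAA replicates 1 and 4 and Ifnar1-/- DMXAA replicates 1 and 4. The log2 fold change stayed between 2.77 and 3.51 in these fits, and the edgeR adjusted p between 0.00253 and 0.164. In astrocytes Irgm1 was at 9.105, 6.592, 6.938 and 3.241 CPM with vehicle and 27.5, 19.55, 9.993 and 20.1 with DMXAA, a log2 fold change of 1.69 ± 0.37 that missed the threshold (edgeR adjusted p = 0.0784). The groups did not overlap, as for 0.768% of genes in astrocytes. Without WT DMXAA replicate 3 it was 1.89 and was called. That fit kept replicate 1, the highest treated library at 27.5 CPM, and a fit without replicate 1 is not given for this pair.

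**Figure D4:**
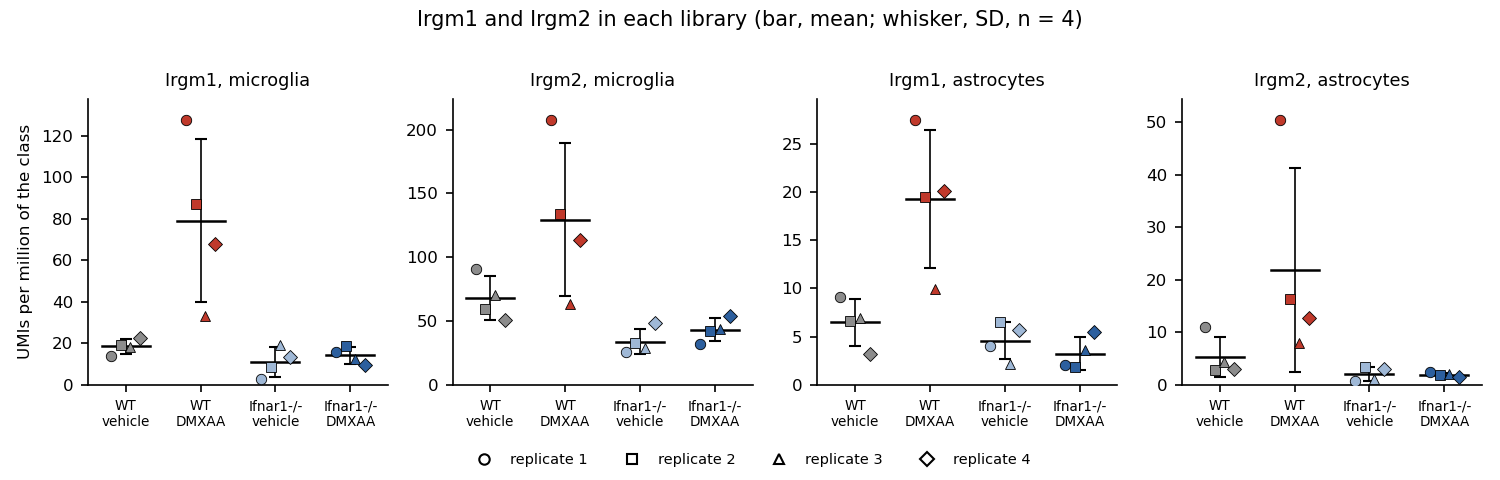
Irgm1 and Irgm2 levels (CPM) in each library in microglia and astrocytes, with a bar at the mean of 4 libraries and whiskers of 1 SD. Irgm1 in WT DMXAA microglia runs from 33.32 to 127.7 CPM, above the 14.09 to 22.62 CPM of WT vehicle, while Irgm2 in microglia overlaps between the same groups.

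Irgm1 had more UMIs with DMXAA in glia of the oligodendrocyte line as well, with few UMIs. Neither class passed after adjustment (exact permutation adjusted p = 0.106 in oligodendrocytes and 0.198 in precursors). Oligodendrocytes, which make myelin, had 4 UMIs in the vehicle group and 47 in the DMXAA group, which is 10.4 times as many for the same depth (95% counting interval 3.82 to 39.9), and 6.57 times without replicate 1, which held 24 of the 47. The treated libraries were at 8.801, 1.927, 1.592 and 3.691 CPM, all above the 0.3361 to 0.4529 CPM of vehicle, as for 0.468% of genes in that class (exact permutation p = 0.0286). Their precursors had 6.1, 3.545, 3.224 and 6.955 CPM with vehicle and 29.52, 13.12, 5.006 and 18.12 with DMXAA, with replicate 3 inside the vehicle range (exact permutation p = 0.0857). Without that library Irgm1 entered the fit of precursors, at a log2 fold change of 2.03, but again only through the treated libraries. In border macrophages, the cortical layers and CA3, Irgm1 overlapped between the WT groups. Border macrophages, the highest of the ranked classes, were at 61 ± 65.8 CPM with vehicle and 57.1 ± 71.8 CPM with DMXAA over 4 and 3 libraries (exact permutation p = 0.971). ENs of the deep cortical layers were at 2.14 and 1.48 CPM (24 and 14 UMIs, exact permutation p = 0.429), those of the upper layers at 1.29 and 1.89 CPM (exact permutation p = 0.429) and CA3 neurons at 1.7 and 2.1 CPM (exact permutation p = 0.714). Over all nuclei the Irgm1 change was 1.68 ± 0.259 on the log2 scale (edgeR adjusted p = 0.00397), and Iigp1 changed by 2.23 ± 0.248 (edgeR adjusted p = 0.000262).

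Irgm2 was not called by edgeR in any class with all libraries. Over all nuclei its log2 fold change was 1.48 ± 0.327 (edgeR adjusted p = 0.0718), which DESeq2 called (1.49, DESeq2 adjusted p = 0.0017), and without WT DMXAA replicate 3 it was 1.71 (edgeR adjusted p = 0.00392). Without replicate 1 of that group it was 0.98 (edgeR adjusted p = 0.176). In microglia, which held the largest share of its UMIs, it was at 90.78, 59.47, 70.39 and 50.89 CPM with vehicle and 207.6, 134, 63.07 and 113.5 with DMXAA. Replicate 3 fell among the vehicle libraries and the other 3 lay above them. The log2 fold change was 0.94 ± 0.274 (edgeR adjusted p = 0.116), and without replicate 3 it was 1.17 (edgeR adjusted p = 0.000559). That fit kept replicate 1, the highest treated library at 207.6 CPM, and a fit without replicate 1 is not given for this pair. In astrocytes Irgm2 went from 11.02, 2.884, 4.24 and 2.947 CPM to 50.42, 16.29, 7.995 and 12.73 CPM, where the largest value in each group was that of replicate 1 (log2 fold change 2.16 ± 0.531, edgeR adjusted p = 0.17). Without WT DMXAA replicate 3 it was 2.42 (edgeR adjusted p = 0.00712), without replicate 1 it was 1.39 (edgeR adjusted p = 0.511), and DESeq2 called it with all libraries (2.16, DESeq2 adjusted p = 0.0282). In fibroblasts Irgm2 was at 20.79 to 29.1 CPM with vehicle and 122.9, 38.51, 8.32 and 35.2 with DMXAA, with replicate 3 below every vehicle library (log2 fold change 1.12 ± 0.498, edgeR adjusted p = 0.784). Without replicate 1 the change was 0.18. Border macrophages were at 80.3 ± 44.8 CPM with vehicle and 72.9 ± 46.9 CPM with DMXAA (exact permutation p = 0.857). In oligodendrocytes it went from 0 in every vehicle library to 39, 9, 6 and 3 UMIs, at least 16.9-fold higher if the vehicle group is set at a floor of 3 counts. The exact permutation p of 0.0286 is a description, as only the treated group brought UMIs to that test. Replicate 1 held 39 of these 57 UMIs, and without it the bound was 6.86-fold. No Ifnar1-/- library had an Irgm2 UMI in oligodendrocytes.

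Igtp, whose gene overlaps Irgm2, entered the edgeR fit only in the sum over all nuclei, where its log2 fold change was 1.21 ± 0.449 (edgeR adjusted p = 0.744). WT DMXAA replicate 1 had 2.652 CPM there and the other treated libraries 1.047, 0.2487 and 0.9675, against 0.4067 to 0.8158 with vehicle. Replicate 3 was below every vehicle library, and without it the change was 1.53 (edgeR adjusted p = 0.0445). Without replicate 1, which held 100 of the 186 treated UMIs, it was 0.52 (edgeR adjusted p = 0.901). In microglia Igtp was at 22.45, 15.58, 1.19 and 12.02 CPM with DMXAA and at 8.036 to 14.73 with vehicle (exact permutation p = 0.6).

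In Ifnar1-/- mice none of the 14 pairs in the fit was called with DMXAA. Iigp1 in dentate granule neurons was at 3.527, 3.811, 4.615 and 5.188 CPM with vehicle (160 UMIs) and 3.569, 3.656, 5.11 and 3.855 with DMXAA (153 UMIs). These libraries interleaved, and the log2 fold change was -0.14 ± 0.174, with an interval of -0.4777 to 0.2057 (95%). Irgm1 in microglia was at 2.53, 8.743, 19.25 and 13.15 CPM with vehicle and 15.98, 18.91, 12.31 and 9.31 with DMXAA, a log2 fold change of 0.26 ± 0.503 with an interval of -0.7273 to 1.244. Changes over the 14 pairs ran from -0.49 to 0.90, and 9 of them were above 0. The count of 0 called by edgeR was also 0 at an unadjusted p under 0.05 and 0 by DESeq2. Outside the fit, Irgm1 went from 12 to 24 UMIs in fibroblasts (4.37 ± 1.29 to 10.2 ± 4.58 CPM, exact permutation p = 0.114). The treated group alone brought it to that test, so this p is a description. In ENs of the upper cortical layers Irgm1 went from 6 to 19 UMIs (0.338 ± 0.253 to 0.982 ± 0.624 CPM, exact permutation p = 0.0857). Neither passed after adjustment (exact permutation adjusted p = 0.222 and 0.198). Endothelial nuclei held 5 and 6 Iigp1 UMIs in the vehicle and DMXAA groups (12.1 ± 6.32 and 20.2 ± 21.4 CPM) and were too few in WT libraries to compare. Over all genes, 0% were called by edgeR in each class, while 850 genes of dentate granule neurons and 467 of microglia had an unadjusted p under 0.05, and DESeq2 called 0 in either.

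The difference between the genotypes was tested itself, as the WT change minus the Ifnar1-/- change. Iigp1 passed in dentate granule neurons, with a difference of 2.24 ± 0.237 on the log2 scale (edgeR adjusted p = 0.000673), where 0.0205% of genes passed in either direction. It was 2.12 to 2.36 and called with any 1 library left out. Iigp1 also passed in all nuclei (2.39 ± 0.355, edgeR adjusted p = 0.0165, against 0.0545% of genes) and in ENs (2.29 ± 0.334, edgeR adjusted p = 0.0181, against 0.0284% of genes), where the dentate granule neurons hold most of its UMIs, so these are not separate results. These calls were kept in 12 and 9 of the 16 fits that left out 1 library. With library totals alone in place of TMM scaling, the difference was 2.10 in dentate granule neurons and still passed (edgeR adjusted p = 0.00759), whereas those in all nuclei and ENs did not (2.26 and 2.12, edgeR adjusted p = 0.102 for both). 3 of 14 pairs passed with edgeR, 4 with DESeq2 (the 3 of edgeR among them) and 8 at an unadjusted p under 0.05. With edgeR, 0.212% of all genes passed in microglia and 0% in astrocytes and fibroblasts. An unadjusted p under 0.05 was had by 1382 of 20167 genes in all nuclei, 798 of 8955 in microglia and 1015 of 14620 in dentate granule neurons. In astrocytes these were 969 of 13338, in ENs 1152 of 17634 and in fibroblasts 640 of 8915. In the same order, DESeq2 passed 123, 39, 20, 22, 28 and 5 genes. Irgm1 did not pass in microglia (1.82 ± 0.632, edgeR adjusted p = 0.44), astrocytes (2.18 ± 0.567, edgeR adjusted p = 0.387) or dentate granule neurons (2.39 ± 1.4, edgeR adjusted p = 0.701). Irgm2 did not pass in microglia (0.62 ± 0.43, edgeR adjusted p = 0.652). Over all nuclei the Irgm1 difference was 1.62 ± 0.378 (edgeR adjusted p = 0.192). For Irgm1 and Irgm2 neither a difference between the genotypes nor a like response was shown by edgeR in these libraries.

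**Figure D5:**
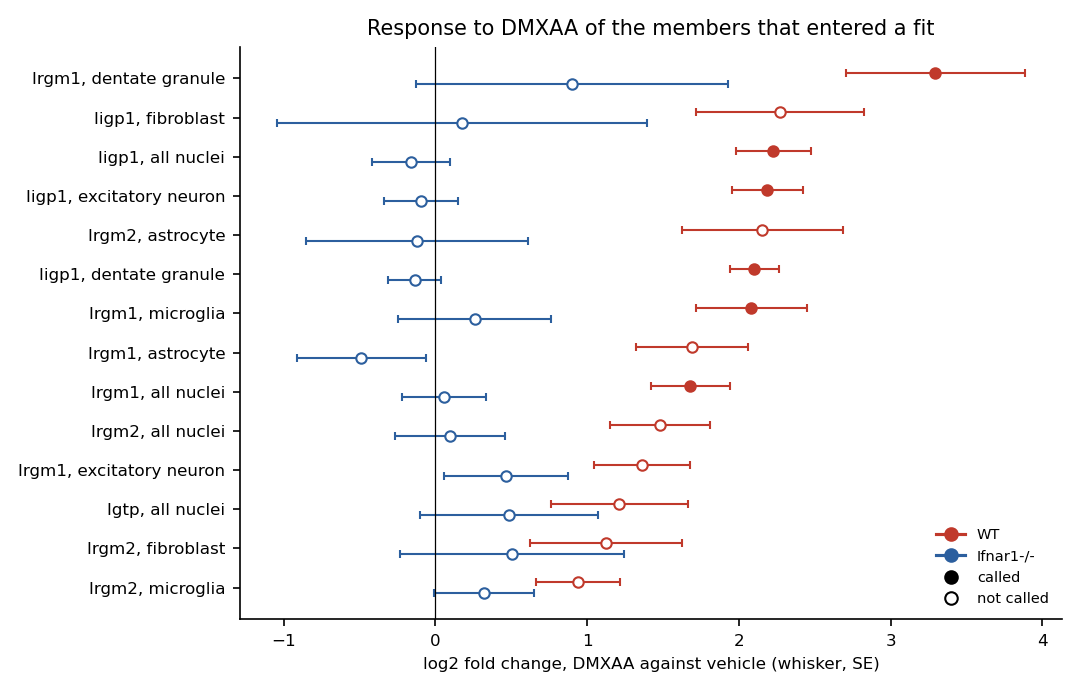
Log2 fold change with DMXAA (± SE) of the 14 gene and class pairs in the fit, WT in red and Ifnar1-/- in blue, filled where called. The 14 WT values lie between 0.94 and 3.30 and the Ifnar1-/- values between -0.49 and 0.90, with none of the latter filled.

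Without DMXAA, Irgm2 and Igtp were lower over all nuclei in Ifnar1-/- than in WT mice, whereas Iigp1 of dentate granule neurons was not called. A large part of all genes differed between these vehicle groups (48.5% of genes in all nuclei, 13.5% in microglia, 30% in astrocytes, 15.5% in fibroblasts, 49.3% in ENs and 49.2% in dentate granule neurons), which differ in age and cohort as well as genotype. Of the 14 pairs 3 were called, each lower, as 2 of 4 in all nuclei and 1 of 2 in fibroblasts. The first is near its background and the second rests on 2 genes. Irgm2 in fibroblasts passed the filter on low counts only through WT libraries, as no Ifnar1-/- library reached its level of 19 CPM. Its call is therefore a description. Igtp over all nuclei reached its level of 0.261 CPM in no Ifnar1-/- vehicle library, but in libraries of each other group. TMM scaling, which the fits used, moved the median difference of all genes from -0.388 to -0.0601 on the log2 scale over all nuclei and from -0.463 to -0.0758 in the EN dentate granule class, against library totals alone. Over all nuclei 4455 genes were called higher and 5329 lower with it, and 2135 and 9026 without it. The 3 pairs were lower and called under both. Irgm2 was at 2.472, 1.763, 2.316 and 1.651 CPM over all nuclei in WT vehicle libraries and at 0.7491, 0.9168, 0.6729 and 1.1 in Ifnar1-/- vehicle libraries, a log2 difference of -0.92 ± 0.347 (edgeR adjusted p = 0.0387). In fibroblasts it was at 23.71, 20.79, 29.1 and 23.96 CPM against 11.79, 4.579, 2.83 and 6.873 (-1.91 ± 0.638, edgeR adjusted p = 0.0474). Neither pair of groups overlapped, as for 43.1% of genes over all nuclei and 12.5% in fibroblasts that were lower in Ifnar1-/-.

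The Igtp difference over all nuclei was -1.35 ± 0.54 (84 against 25 UMIs, edgeR adjusted p = 0.0496), and 2 of 16 fits that left out 1 library kept that call, those without WT DMXAA replicate 1 or 3. It was also lost with relative log expression factors for the scaling (edgeR adjusted p = 0.0527) and with no filter on low counts (edgeR adjusted p = 0.0567). The call of Irgm2 over all nuclei was kept in 11 of 16 such fits, and lost without WT vehicle replicates 1 or 3 or Ifnar1-/- vehicle replicates 1, 2 or 3. That in fibroblasts was kept in 3 of 16, those without WT DMXAA replicates 1 or 3 or Ifnar1-/- vehicle replicate 1. Irgm2 in microglia was at 25.3, 32.79, 28.87 and 48.2 CPM in Ifnar1-/- vehicle libraries, each below the 50.89 to 90.78 CPM of WT, but was not called (-0.87 ± 0.312, edgeR adjusted p = 0.0698). Such lower groups were seen for 16.5% of genes in microglia. Iigp1 in dentate granule neurons was not called, and the sign of its difference depended on the scaling. Its mean was 4.88 CPM in WT and 4.29 CPM in Ifnar1-/- vehicle libraries, and the log2 difference was 0.19 ± 0.172 with TMM scaling (edgeR adjusted p = 0.355) and -0.19 with library totals alone (edgeR adjusted p = 0.419). In fibroblasts, Iigp1 had 5.894, 1.145, 0 and 0 CPM in Ifnar1-/- vehicle mice (-2.64 ± 0.915, edgeR adjusted p = 0.0562).

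The other effectors, Tgtp1, Tgtp2 and Ifi47, stayed below the filter in every class. Tgtp2 had 4, 4, 1 and 0 UMIs over all nuclei with vehicle and 23, 9, 3 and 8 with DMXAA in WT mice (exact permutation p = 0.0857), and 8 and 1 UMIs in the Ifnar1-/- groups. In microglia, 19 of its 23 UMIs with DMXAA came from replicate 1. Tgtp1 had 1, 2, 1 and 0 UMIs with vehicle and 6, 6, 0 and 4 with DMXAA, and 20 of its 26 UMIs in the 16 libraries were in the choroid plexus. There it was at 0 to 2.124 CPM with WT vehicle (3 UMIs) and 4.026 to 10.53 CPM with WT DMXAA (13 UMIs), over 3 libraries each and without a test. WT vehicle replicate 4 and WT DMXAA replicate 3, with 0 UMIs of Tgtp1, had 0 choroid plexus nuclei. Ifi47 had 10 UMIs with vehicle and 20 with DMXAA (exact permutation p = 0.286). No change of these 3 genes passed a test. Whether depth or sequence shared with other genes kept their counts low was not tested.

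The genes that act around the IRGs were followed from lists of ligands, receptors, transcription factors, relatives and partners. Of 9 interferon ligands none had enough UMIs to be tested, and Ifnb1 had 0 UMIs in every library. Of the 7 interferon receptor chains and Janus kinases, which pass the signal from the membrane, all were tested in microglia and 0 were called in WT mice, where 1.82% of all genes were, so a count of 0 is near the background (median log2 fold change 0.0945, against 0.021 over all genes). Of the transcription factors that read the signal, Stat2 changed in microglia by 2.55 ± 0.355 (87 to 566 UMIs, edgeR adjusted p = 0.000619) and Irf9, its DNA-binding partner, by 1.26 ± 0.288 (100 to 265 UMIs, edgeR adjusted p = 0.0298). The median over the 6 tested was 1.16.

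In dentate granule neurons Irf9 was also called, at 2.06 ± 0.269 (352 to 1375 UMIs, edgeR adjusted p = 0.00117). The Stat2 change differed between the genotypes in microglia (3.05 on the log2 scale, edgeR adjusted p = 0.031). No receptor or kinase was called in dentate granule neurons (0 of 7, where 0.137% of all genes were called, with a median of 0.00827 against 0.008). In Ifnar1-/- mice 0 genes of these lists were called in any class, as for 0% of all genes.

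Among other IRG relatives, Gm4951, a gene with an IRG domain, was called in microglia (1 of 3 tested). It had 17, 15, 1 and 5 UMIs with vehicle and 250, 99, 92 and 99 with DMXAA, a log2 fold change of 3.65 ± 0.498, and 1 UMI in each Ifnar1-/- group. Replicate 3, at 92 UMIs, was the lowest treated library and lay above every vehicle library. In astrocytes Gm4951 had 1, 4, 0 and 3 UMIs with vehicle and 157, 93, 49 and 55 with DMXAA (5.71 ± 0.64), and in dentate granule neurons it had 3 and 17. In microglia and astrocytes it passed the filter only through the WT DMXAA libraries, so its calls there are a description. Of the guanylate-binding proteins, which join IRGs on parasite vacuoles, 3 of 7 tested were called over all nuclei, where 0.421% of all genes were, and they are named here after their values were seen. Gbp3 changed by 2.62 ± 0.347, Gbp6 by 2.28 ± 0.347 and Gbp7 by 1.44 ± 0.278 on the log2 scale. Of the autophagy genes whose products direct IRGs to vacuoles, such as Atg5 and Atg16l1, 0 of 12 were called over all nuclei (median -0.0243), 0 of 10 in microglia and 0 of 12 in dentate granule neurons (median -0.0332). With 0.421%, 1.82% and 0.137% of all genes called in these, a count of 0 is near the background.

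Genes with a like pattern were sought over 128 points, the sums of 8 classes in 16 libraries, among 16717 genes, by Pearson's correlation of log2(CPM + 1). The points share libraries and depth, and the values are a description. Iigp1 was most like Isg15 (0.735), Oas2 (0.727), Gm4951 (0.725), Irf7 (0.691) and Ifit1 (0.68). Isg15, Oas2, Irf7 and Ifit1 are known interferon-stimulated genes or their regulators. Gm4951, the IRG relative, also had more UMIs with DMXAA in WT microglia and astrocytes, as given above. Irgm1 was most like Ddx60 (0.838), B2m (0.82), Ddx58 (0.816), Rnf213 (0.815) and Dtx3l (0.807). Irgm2 was most like Parp14 (0.91), Slfn8 (0.901), Dtx3l (0.899), Trim30a (0.898) and Trim30d (0.893).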

How the data were processed

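Nuclei were sorted by DAPI from frozen hippocampus and sequenced with 10x 3′ chemistry, with pre-mRNA counted against mm10. The authors deposited raw UMI counts per gene and barcode. Per the file headers the counts came from Cell Ranger 6.1.2, whereas the submitters' processing notes name Cell Ranger 3.1.0 and Seurat 3.0. Barcodes with 200 to 4000 genes and under 5% mitochondrial UMIs were kept, and simulated-doublet scores removed 0.8% per 1000 barcodes (4.41 to 8.21% of each library). Nuclei were clustered on 2000 variable genes, 30 components and 20 neighbours (leidenalg 0.10.2, resolution 0.5), without the IRGs and interferon genes, into 33 clusters. Classes were named from marker genes. UMIs were summed per library and class, for libraries with at least 20 nuclei, and tested with edgeR 4.0.16 in R 4.3.3 (TMM, filterByExpr, 4 groups). Counts of calls in the closing section cover the cell classes, without the sum over all nuclei and the EN regions. Scripts were tested on simulated data. Genes named were the 7 IRGs, up to 3 genes per list called in WT microglia, and the 5 genes most like each IRG with over 500 UMIs. Other genes named, among them Gbp3, Gbp6, Gbp7 and Irf9 in dentate granule neurons, were chosen after their values were seen. The IRGs, lists and tests were chosen with earlier results of these data known. Alternatives used DESeq2 1.42.0, limma 3.58.1, other filters and, chosen after seeing the data, library totals without scaling factors. Precision is limited by 33375608 to 52271972 UMIs per library. Some genes of the lists and markers are not reported here.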

Additional observations from a re-analysis of the deposited data

Results flagged for a closer look

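In 4 of 55 groups of 4 libraries, 1 library lay far from the other 3, where chance alone gives about 1 in 20. WT vehicle replicate 1 was highest for Irgm2 in astrocytes, at 11 CPM against 2.88 to 4.24 in the others. WT DMXAA replicate 1 was highest for Irgm2 in oligodendrocytes, at 14.3 CPM against 0.923 to 2.89, and in oligodendrocyte precursors, at 20.5 CPM against 6.26 to 8.35. Ifnar1-/- DMXAA replicate 2 was lowest for Irgm1 in fibroblasts, at 3.32 CPM against 11.8 to 13.

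The change of Iigp1 with DMXAA differed between WT and Ifnar1-/- mice by 2.39 on the log2 scale in all nuclei, by 2.29 in excitatory neurons and by 2.24 in dentate granule neurons, by the test of the difference itself. These 3 values share most of their UMIs.

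Nuclei of unnamed clusters, which entered no class and are counted only in the sums over all nuclei, also held IRG UMIs. With DMXAA the WT libraries had 22 UMIs of Iigp1 there against 3 with vehicle, 26 of Irgm1 against 7 and 9 of Igtp against 1. Of the 22 Iigp1 UMIs, 12 came from replicate 3.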

How the results depend on the processing

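No paired analysis was possible because replicate numbers were given in accession order and mark no shared litter, batch or day. Over the cell classes, 2 WT pairs were called (Irgm1 in microglia and Iigp1 in excitatory neurons). DESeq2 called 5 and the fit with no filter on low counts 10, and leaving out 1 library gave 2 to 8. The count of 8 came without WT DMXAA replicate 3, where Irgm1 and Irgm2 were called in microglia and astrocytes, Iigp1 in astrocytes, excitatory neurons and fibroblasts, and Irgm1 in oligodendrocyte precursors. In that fit Iigp1 in astrocytes and fibroblasts and Irgm1 in precursors passed the filter only through the treated libraries. The share of all genes called in these alternative fits is not set beside the counts. A higher count there is therefore not a result about the IRGs. The Ifnar1-/- count was 0 under each alternative run. The interaction count of 1 was 0 or 1 with a library left out and 0 with library totals alone. It was lost for Iigp1 in excitatory neurons without WT vehicle replicates 1, 3 or 4, Ifnar1-/- vehicle replicates 1, 3 or 4, or Ifnar1-/- DMXAA replicate 2, and in all nuclei without WT vehicle replicates 3 or 4, Ifnar1-/- vehicle replicate 4 or Ifnar1-/- DMXAA replicate 2. Between vehicle groups the count was 1, for Irgm2 in fibroblasts, which passed the filter only through WT libraries. This count was 2 with DESeq2 and with library totals alone, 4 with limma-trend and 3 with no filter, and 0 to 5 with a library left out. Neither limma-trend nor library totals alone called Irgm1 in dentate granule neurons with DMXAA. With library totals alone the difference between vehicle groups turned to -0.1886 for Iigp1 in dentate granule neurons, -0.309 in all nuclei and -0.03416 in excitatory neurons.

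Over 56 single values, 479 of 504 values under the 9 other alternatives kept direction and side of the threshold, as did 809 of 896 with a library left out. Part of the former agreement was fixed in advance. Admitting libraries with at least 10 nuclei could change no value, since every fitted class had at least 94 in each library. Summing Tgtp1 and Tgtp2 could not either, since neither gene entered a fit. With limma-trend the Ifnar1-/- change turned to -0.2181 for Iigp1 in fibroblasts and to 0.04479 for Irgm2 in astrocytes. With a library left out, values that changed sign ran from -0.0782 to 0.233 for Iigp1 in all nuclei between vehicle groups, and from -0.302 to 1.02 for the Irgm2 interaction in fibroblasts. The Ifnar1-/- changes that did so ran from -0.247 to 0.0617 for Iigp1 in excitatory neurons, -2.89 to 1.51 for Iigp1 in fibroblasts, -0.0935 to 0.201 for Irgm1 in all nuclei, -0.0449 to 0.66 for Irgm1 in microglia, -0.0254 to 0.223 for Irgm2 in all nuclei and -0.39 to 0.228 for Irgm2 in astrocytes. None was called in either direction, and the cause was not tested. Ifi47, Tgtp1 and Tgtp2 had few UMIs and stayed below the filter also when Tgtp1 and Tgtp2 were summed. The part of depth and of shared sequence in this was not tested.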
